A study of Mus musculus with 22 samples.

Results

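A set of 8 mouse genes was followed by symbol through RNA-seq counts of primordial germ cells, the embryonic precursors of eggs and sperm: Spo11, Mei1, Mei4, Prdm9, Dmc1, Hormad1, Hormad2 and Trip13. They are 8 of 37991 genes in the deposited table of the Tet1 cross, and all 8 were among the 17567 genes kept by the filter on low counts. In that cross both parents were heterozygous for a Tet1 mutation and carried the GOF18ΔPE-EGFP reporter, which marks germ cells with green fluorescence for sorting. Tet1 encodes an enzyme that oxidises methylated cytosine. Tet1-KO and Tet1-WT cells were collected at E10.5 with no sex given, and at E12.5 and E14.5 from female and male embryos, with 2 libraries in each of the 10 groups. Each library pooled RNA of 2 to 6 embryos (1000 to 8000 sorted cells), so an n of 2 below counts pools, not single embryos. Another 2 libraries came from E10.5 wild type germ cells of a cross between MF1 females and GOF18ΔPE-EGFP males, made from 600 to 1000 cells each.

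Meiotic recombination begins with programmed DNA double-strand breaks. SPO11 cuts the DNA with the help of accessory proteins on the chromosome axis, PRDM9 marks where the cuts fall, and DMC1 coats the resected ends and searches the homologous chromosome for a match. HORMAD1 and HORMAD2 bind unsynapsed axes and take part in the checks on them. HORMAD1 also promotes break formation, and both are stripped off by the ATPase TRIP13 once homologues pair. In mouse, female germ cells enter meiosis in the fetal ovary, whereas male germ cells stay out of meiosis until after birth.

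Totals ran from 9616436 to 25899505 counts per library in the Tet1 cross and were 59415040 and 66924911 counts in the MF1 cross. Tet1 itself was lower in every Tet1-KO library than in every Tet1-WT library of the same stage and sex at E12.5 and E14.5. The means were 61.0 ± 11.1 against 203 ± 33.0 CPM in E12.5 females and 81.9 ± 3.65 against 243 ± 93.0 CPM in E12.5 males (SD, n = 2 each; CPM is counts scaled to a common library total). At E14.5 they were 23.4 ± 3.40 against 42.2 ± 9.90 CPM in females and 89.7 ± 13.9 against 186 ± 44.1 CPM in males. At E10.5 the genotypes overlapped: libraries labelled Tet1-KO held 44.5 and 102 CPM of Tet1, and those labelled Tet1-WT held 134 and 76.8 CPM. The sources used here do not say whether the counted exons include the mutated stretch, and directions at E10.5 rest on the labels alone. All 13 germ cell markers on the list used here were detected in every group. Their summed level was 4019 to 6201 CPM in libraries labelled Tet1-KO and 1469 to 1788 CPM in libraries labelled Tet1-WT at E10.5, and 5076 to 11734 CPM at the later stages. The summed level of 15 mesenchyme markers was lower in Tet1-KO than in Tet1-WT libraries at E10.5 (380 to 883 against 1667 to 1939 CPM), in E12.5 females (43.8 to 48.4 against 811 to 1175 CPM) and in E12.5 males (172 to 262 against 1140 to 1829 CPM).

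RefSeq promoter windows on GRCm38.p6 were matched for 7 of the 8 genes. Prdm9 and Hormad1 had a pair of windows each, of which the Prdm9 window holding matches and the first Hormad1 window are shown. The 250 bases before the start are given for Hormad1, Hormad2 and Prdm9, the genes that fell in E14.5 Tet1-KO females, and for Trip13, whose level hardly moved. The windows were searched on both strands for CNCCTCAG, a motif tied in mouse to STRA8, the driver of meiotic entry, for CACGTG, an E-box bound by MAX partners, and for GCGGGAA, an E2F site. Capitals mark the matches.
Hormad1, chr3:95559427-95559676, plus strand: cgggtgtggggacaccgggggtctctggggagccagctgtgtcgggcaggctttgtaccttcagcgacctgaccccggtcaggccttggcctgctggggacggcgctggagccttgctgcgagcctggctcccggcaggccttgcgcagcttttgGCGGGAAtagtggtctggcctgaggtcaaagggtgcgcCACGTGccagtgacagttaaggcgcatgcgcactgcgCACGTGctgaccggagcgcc
Hormad2, chr11:4441083-4441332, minus strand: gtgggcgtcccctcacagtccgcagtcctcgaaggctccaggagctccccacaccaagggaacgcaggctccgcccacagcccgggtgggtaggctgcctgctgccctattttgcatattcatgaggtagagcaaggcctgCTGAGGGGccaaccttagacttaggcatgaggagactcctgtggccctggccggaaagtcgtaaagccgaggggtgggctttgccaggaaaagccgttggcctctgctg
Prdm9, chr17:15564355-15564604, minus strand: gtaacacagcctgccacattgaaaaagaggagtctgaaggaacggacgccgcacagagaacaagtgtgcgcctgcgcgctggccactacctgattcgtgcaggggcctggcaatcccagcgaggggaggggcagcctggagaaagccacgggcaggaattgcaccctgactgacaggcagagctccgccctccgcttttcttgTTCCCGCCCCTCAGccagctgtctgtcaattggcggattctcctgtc
Trip13, chr13:73937768-73938017, minus strand: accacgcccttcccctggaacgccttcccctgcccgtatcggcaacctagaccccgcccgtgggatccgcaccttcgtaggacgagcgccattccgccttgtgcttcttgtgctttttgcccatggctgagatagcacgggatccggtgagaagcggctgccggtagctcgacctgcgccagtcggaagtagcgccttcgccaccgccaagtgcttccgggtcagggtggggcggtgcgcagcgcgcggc
Hormad1 held GCGGGAA with its first base 95 bases before the start, and CACGTG at 57 and 20 bases before it. Hormad2 held CNCCTCAG on the reverse strand, 109 bases before its start. The Prdm9 window held GCGGGAA on the reverse strand at 47 bases and CNCCTCAG at 41 bases before the start, the matches sharing 1 base. Trip13, Dmc1, Mei1 and Mei4 held none of the 3 motifs. Of 32851 promoters in the table, 6.42% held CNCCTCAG, 6.02% held CACGTG and 3.82% held GCGGGAA. The windows held 19 CpG dinucleotides in Hormad1, 10 in Hormad2, 13 in Prdm9 and 27 in Trip13, against a median of 6 over all promoters (quartiles 2 and 16). These matches are descriptions of letters, and no binding or methylation was measured in these libraries.

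**Figure D1:**
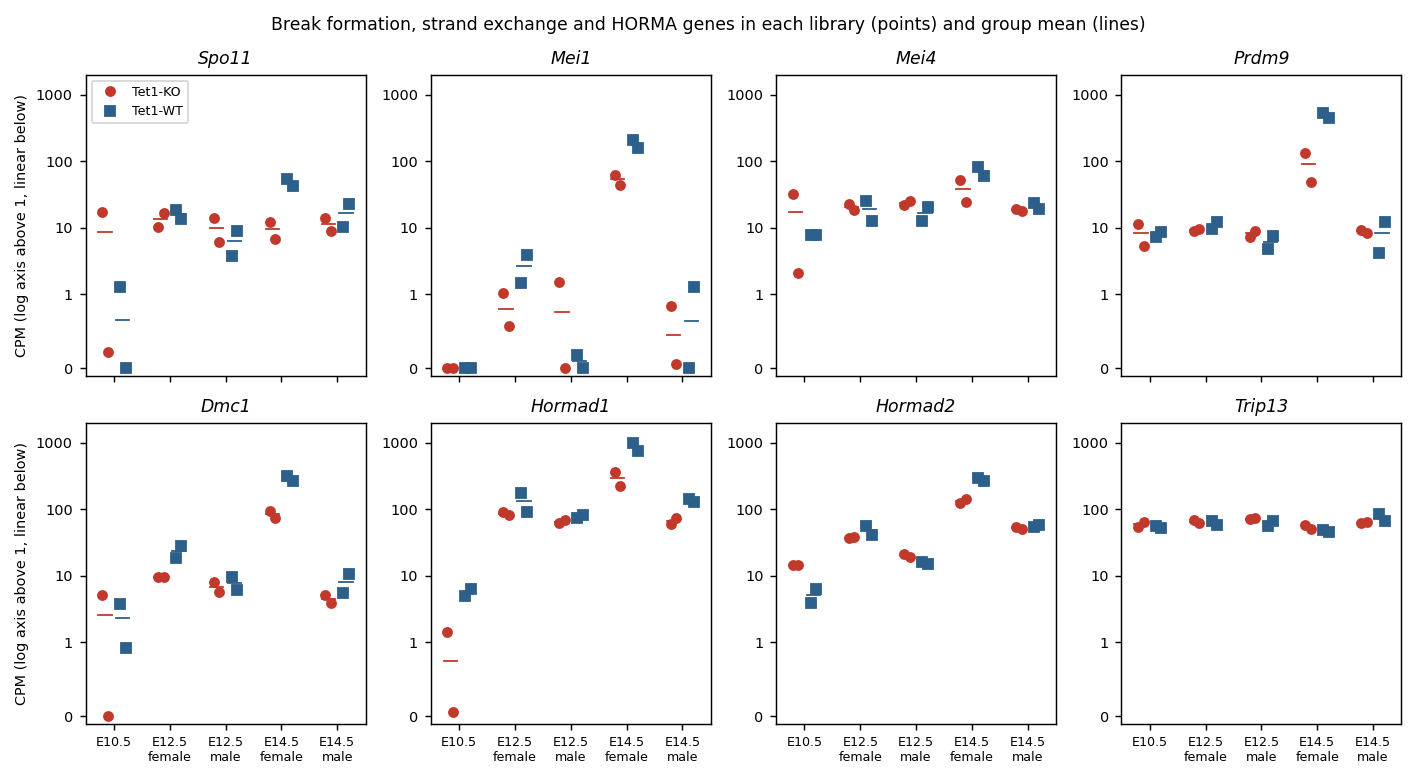
Level of each gene in CPM (vertical axis, logarithmic above 1 and linear below) in every library, by stage and sex, with Tet1-KO in red circles left of Tet1-WT in blue squares; short lines are group means of 2 libraries. All panels but that of Trip13 peak in E14.5 Tet1-WT females, and Trip13 stays between 46.0 and 85.7 CPM.

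Among the break machinery genes, Spo11, the nuclease itself, did not exceed 22.4 CPM in any library outside E14.5 Tet1-WT females. In Tet1-WT cells it had 1.30 and 0 CPM at E10.5, 18.2 and 13.7 CPM in E12.5 females, and 53.9 and 42.7 CPM in E14.5 females. In Tet1-WT males it had 3.75 and 9.02 CPM at E12.5 and 10.3 and 22.4 CPM at E14.5, both E14.5 male values below both female ones. Mei1, needed for break formation in mouse, was the gene most nearly silent outside E14.5 females. It had no count in the 4 E10.5 libraries of the Tet1 cross, which allows levels of up to 0.162 to 0.206 CPM (3 counts, counting error only). Tet1-WT females had 1.47 and 3.84 CPM of Mei1 at E12.5 and 207 and 160 CPM at E14.5, and the E14.5 Tet1-WT males had 0 and 1.28 CPM. Mei4, a partner of the SPO11 complex on the axis, moved over a narrower range. Its Tet1-WT libraries had 7.85 and 7.67 CPM at E10.5, 25.2 and 12.7 CPM in E12.5 females, and 82.8 and 60.0 CPM in E14.5 females.

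Prdm9, the histone methyltransferase that places breaks, was low and flat until E14.5 and then high in females alone among the Tet1-WT groups. It had 7.23 and 8.48 CPM at E10.5, 9.6 and 12 CPM in E12.5 females and 524 and 441 CPM in E14.5 females. Tet1-WT males had 4.84 and 7.46 CPM of Prdm9 at E12.5 and 4.22 and 12.3 CPM at E14.5. Dmc1, the meiotic recombinase, climbed in steps: 3.78 and 0.918 CPM at E10.5, 18.7 and 28 CPM in E12.5 females and 314 and 263 CPM in E14.5 females of Tet1-WT. In Tet1-WT males Dmc1 stayed at 9.68 and 6.08 CPM at E12.5 and 5.47 and 10.8 CPM at E14.5.

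The HORMA genes were detected in both sexes at E12.5. Hormad1 had 4.91 and 6.37 CPM in Tet1-WT libraries at E10.5, 178 and 90.1 CPM in E12.5 females and 985 and 759 CPM in E14.5 females. Tet1-WT males had 73.6 and 80.9 CPM of Hormad1 at E12.5 and 143 and 129 CPM at E14.5, so the male libraries too lay above all E10.5 ones. Hormad2 had 3.95 and 6.32 CPM at E10.5, 55.6 and 41.1 CPM in E12.5 females and 296 and 264 CPM in E14.5 females of Tet1-WT. In Tet1-WT males it had 16.1 and 15.2 CPM at E12.5 and 54.9 and 58.0 CPM at E14.5. E10.5 libraries labelled Tet1-KO already had 14.7 and 14.7 CPM of Hormad2, and those of the MF1 cross, scaled in their own fit, 18.1 and 18.9 CPM. Trip13, which also works in the mitotic spindle checkpoint, ranged only from 46.0 to 85.7 CPM over the 20 libraries, with its highest group mean in E14.5 Tet1-WT males (76.3 ± 13.4 CPM) and its lowest in E14.5 Tet1-WT females (47.4 ± 1.92 CPM; SD, n = 2 each).

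Levels of different genes were compared per kilobase of exon, with exon lengths from GENCODE vM21. In E10.5 Tet1-WT cells Trip13 led with 15.6 CPM per kb, and the other 7 genes lay between 0 and 3.26 CPM per kb. In E14.5 Tet1-WT females Hormad1 led with 504 CPM per kb, followed by Dmc1 at 118, Prdm9 at 112 and Hormad2 at 102 CPM per kb. Spo11, the nuclease, was then lowest at 12.3 CPM per kb, just under Trip13 at 13.6 CPM per kb. In E14.5 Tet1-KO females the order was Hormad1 at 167, Hormad2 at 48.6, Dmc1 at 34.4 and Prdm9 at 20.9 CPM per kb, with Spo11 again lowest at 2.40 CPM per kb.

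The first question was how these genes changed as wild type females moved through E12.5 to E14.5. Of the 8 genes, 5 rose: Mei1, Prdm9, Dmc1, Hormad1 and Hormad2, where 25.3% of all tested genes changed and 11.3% rose (edgeR quasi-likelihood test, Benjamini-Hochberg adjusted p under 0.05, as for every call below). Mei1 rose 68.6-fold (183 ± 32.9 against 2.66 ± 1.67 CPM, log2 difference 6.10, SE 1.11, adjusted p = 0.00113). Prdm9 rose 44.6-fold (483 ± 59.2 against 10.8 ± 1.69 CPM, log2 5.48, SE 0.55, adjusted p = 7.56e-06). Dmc1 rose 12.3-fold (log2 3.62, SE 0.83, adjusted p = 0.00427), Hormad1 6.50-fold (2.70, SE 0.42, adjusted p = 0.000228) and Hormad2 5.79-fold (2.53, SE 0.21, adjusted p = 2.06e-06). Mei4 and Spo11 did not pass, at log2 1.92 (SE 0.74, adjusted p = 0.0700) and 1.60 (SE 1.13, adjusted p = 0.336), although both had every E14.5 library above every E12.5 one. Trip13 did not pass either, at log2 -0.37 (SE 0.18, adjusted p = 0.147). The Mei1 difference was log2 6.92 without E12.5 replicate 2. Mesenchyme markers summed to 35.9 to 43.3 CPM at E14.5 against 811 to 1175 CPM at E12.5 in these females, and endothelial and blood markers to 58.0 to 73.1 against 300 to 431 CPM. Their part in the rise was not tested.

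In wild type males over the same days 1 gene rose, against 12.7% of all genes changing and 4.92% rising. Hormad2 rose 3.6-fold (56.5 ± 2.20 against 15.7 ± 0.609 CPM, log2 1.85, SE 0.21, adjusted p = 5.01e-05). Hormad1 had 136 ± 9.75 CPM at E14.5 against 77.2 ± 5.20 CPM at E12.5 without passing (log2 0.81, SE 0.40, adjusted p = 0.207). In these wild type males germ cell markers summed to 11335 to 11734 CPM at E14.5 against 5076 to 6158 CPM at E12.5, and mesenchyme markers to 28.3 to 38.2 against 1140 to 1829 CPM, and their part in the Hormad2 rise was not tested. Males of Tet1-KO gave the same single call, with Hormad2 at 51.7 ± 2.49 against 20.4 ± 1.81 CPM (log2 1.34, SE 0.21, adjusted p = 0.00123), where 10.4% of all genes changed and 5.50% rose. Their germ cell markers summed to 11035 to 11157 CPM at E14.5 against 6983 to 7050 CPM at E12.5.

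**Figure D2:**
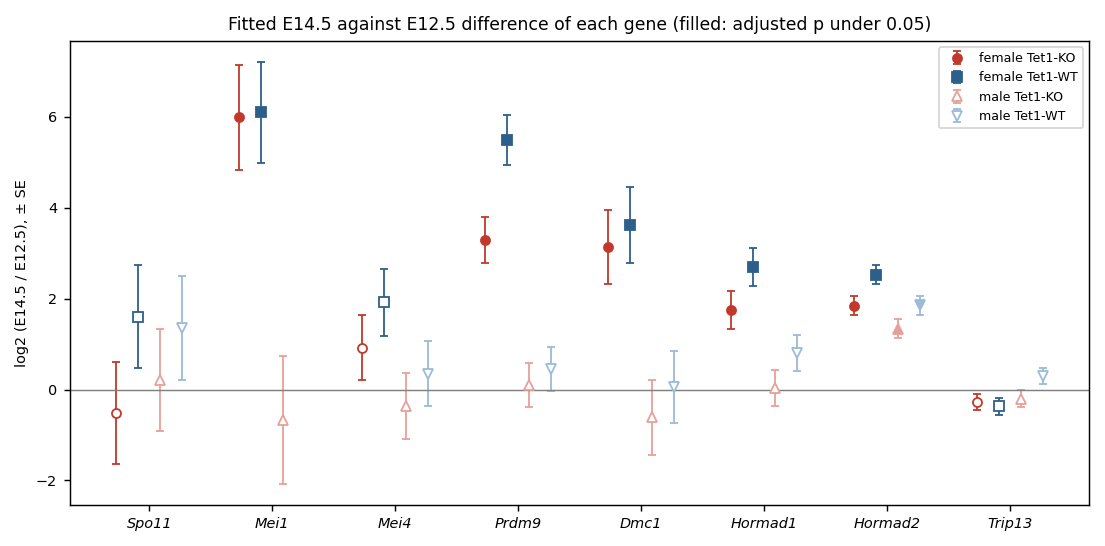
Fitted log2 difference of E14.5 over E12.5 (vertical axis) with its standard error for each gene, in female Tet1-KO, female Tet1-WT, male Tet1-KO and male Tet1-WT cells; filled symbols passed an adjusted p of 0.05, and a comparison with a group of 3 counts or fewer is left out. Mei1, Prdm9, Dmc1, Hormad1 and Hormad2 are filled in both female genotypes, and Hormad2 is filled in both male ones.

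Set against males of the same stage, E14.5 wild type females were higher in Mei1, Prdm9, Dmc1, Hormad1 and Hormad2 and lower in Trip13, where 28.1% of all genes differed, 14.1% being higher and 14% lower in females. Mei1 was higher by a log2 of 8.02 (SE 1.24, adjusted p = 0.000282), over 0 and 32 counts in the males. The size of that difference rests on those 2 libraries: it was log2 7.16 without male replicate 1, and without male replicate 2 the male group held no count. Prdm9 was 57.5-fold higher (log2 5.85, SE 0.56, adjusted p = 2.46e-06; log2 6.83 without male replicate 2) and Dmc1 35.1-fold higher (log2 5.13, SE 0.90, adjusted p = 0.000503). Hormad1 was 6.42-fold higher (adjusted p = 0.000204) and Hormad2 4.96-fold higher (adjusted p = 1.61e-06). Trip13 was 1.61-fold lower in females, at 48.7 and 46.0 CPM against 85.7 and 66.8 CPM in males (log2 -0.69, SE 0.18, adjusted p = 0.00925). Without female replicate 1, female replicate 2 or male replicate 1 the Trip13 difference missed the threshold, at adjusted p = 0.0538, 0.0800 and 0.126. Mei4 at log2 1.76 (SE 0.73, adjusted p = 0.0874) and Spo11 at 1.56 (SE 1.13, adjusted p = 0.332) did not pass, although no female library overlapped a male one. Germ cell markers summed to 6126 to 6469 CPM in these females against 11335 to 11734 CPM in the males, and their part in the differences, that of Trip13 included, was not tested.

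At E12.5, 7 of the 8 genes had a positive log2 difference of Tet1-WT females over males, Trip13 being the exception. The median log2 difference of the 8 genes was 1.07, against 0.00 over all tested genes. Germ cell markers summed to 7060 to 7817 CPM in these females against 5076 to 6158 CPM in the males. Mesenchyme markers summed to 811 to 1175 against 1140 to 1829 CPM, and the part of these markers in the differences was not tested. The 1 gene that passed was Hormad2, 3.08-fold higher in females (48.3 ± 10.3 against 15.7 ± 0.609 CPM, log2 1.63, SE 0.21, adjusted p = 0.00169), where 0.575% of all genes differed and 0.330% were higher. It missed the threshold when the compared groups were fitted alone (log2 1.63, adjusted p = 0.0637). Mei1 was also under an unadjusted p of 0.05, as were 2222 of all 17567 genes. It had 3 and 0 counts in the male libraries, and its adjusted p was 0.191. In Tet1-KO cells none of the 8 passed in edgeR, against 0.398% of all genes. Hormad2 came nearest there, at 37.1 ± 0.603 CPM in females against 20.4 ± 1.81 CPM in males (log2 0.87, SE 0.21, adjusted p = 0.0947). It was the 1 gene of the 8 under an unadjusted p of 0.05, against 1454 of all 17567 genes. DESeq2 called 1 of the 8 and 1.94% of all genes.

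In Tet1-WT females at E12.5 against E10.5, 5 genes rose where 13.6% of all genes changed and 8.81% rose. Hormad1 rose 23.7-fold (134 ± 62.5 against 5.64 ± 1.03 CPM, log2 4.57, SE 0.48, adjusted p = 1.83e-05). Hormad2 rose 9.38-fold (48.3 ± 10.3 against 5.14 ± 1.67 CPM, log2 3.23, SE 0.23, adjusted p = 3.15e-07). Dmc1 was 9.96-fold higher (log2 3.32, SE 0.87, adjusted p = 0.0195) and Spo11 24.5-fold higher (log2 4.62, SE 1.36, adjusted p = 0.0338). Mei1 was at least 16-fold higher, taking 3 counts per library at E10.5, where it had none (adjusted p = 0.0249). Without E10.5 replicate 1 the Dmc1 difference was log2 4.65 and that of Spo11 had no count at E10.5 to rest on. Without E10.5 replicate 2 they were log2 2.61 for Dmc1 and 3.6 for Spo11. Hormad1 was at log2 3.97 without E12.5 female replicate 1. Germ cell markers moved the same way, at 7060 to 7817 CPM in the E12.5 females against 1469 to 1788 CPM at E10.5, and their part in these differences was not tested. Without E10.5 Tet1-WT replicate 2 or without E12.5 female Tet1-WT replicate 2, Hormad1 and Hormad2 kept their calls, and Mei1, Dmc1 and Spo11 lost theirs. Mei1 lost its call without E10.5 Tet1-WT replicate 1 as well. Spo11 missed the threshold with the compared groups alone (adjusted p = 0.0563) and in those fits (adjusted p = 0.183 and 0.0681), as did Dmc1 (adjusted p = 0.159 and 0.0815), and without E12.5 female replicate 1 Spo11 alone of that pair missed it (adjusted p = 0.0778).

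In Tet1-WT males at E12.5 against E10.5, Hormad1 rose 13.7-fold (log2 3.77, SE 0.46, adjusted p = 0.000122) and Hormad2 3.04-fold (log2 1.61, SE 0.22, adjusted p = 0.000289), where 9.45% of all genes changed and 6.40% rose. Germ cell markers rose too, to 5076 to 6158 CPM in these males against 1469 to 1788 CPM at E10.5, and their part was not tested. In cells labelled Tet1-KO, Hormad1 had 86.0 ± 5.53 CPM in E12.5 females and 64.7 ± 4.88 CPM in E12.5 males, against 0.747 ± 0.979 CPM at E10.5. These were rises by a log2 of 6.95 (SE 0.59, adjusted p = 5.36e-06; 10.4% of all genes changed and 6.71% rose) and 6.54 (SE 0.59, adjusted p = 1.26e-05; 9.09% changed and 6.23% rose). Their size rests on 21 and 1 Hormad1 counts at E10.5: without E10.5 replicate 1 they were 10.42 in females and 10.03 in males, and without replicate 2 they were 6.00 and 5.52. Hormad2 rose 2.53-fold in the females (log2 1.34, SE 0.21, adjusted p = 0.000873) and was the only other call in cells labelled Tet1-KO. In the males Hormad2 did not pass (log2 0.47, adjusted p = 0.179). Germ cell markers summed to 6945 to 7003 CPM in these females and 6983 to 7050 CPM in these males. At E10.5 they summed to 4019 to 6201 CPM, and their part was not tested. Both of these Hormad1 calls and the Hormad2 call missed the threshold when the compared groups were fitted alone, with adjusted p-values of 0.0664 and 0.0938 for Hormad1 and 0.0988 for Hormad2. Without E10.5 Tet1-KO replicate 1, the E10.5 library of this cross highest in Spo11, Mei4 and Dmc1, the calls grew to 5 in females and 4 in males.

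The second question was what changed in Tet1-KO cells. In E14.5 females 7 of the 8 genes had a negative log2 difference of Tet1-KO over Tet1-WT. Of these 3 passed the test, where 6.65% of all tested genes changed and 3.29% fell. The median log2 difference of the 8 genes was -1.69, against -0.03 over all tested genes. Prdm9 had 131 and 48.6 CPM in Tet1-KO females against 524 and 441 CPM in Tet1-WT females, a 5.38-fold fall (log2 -2.43, SE 0.47, adjusted p = 0.00756). Tet1-KO library a held more than library b in 7 of the 8 genes, Hormad2 being the exception, yet neither came near the lower Tet1-WT library for Prdm9.

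Hormad1 had 359 and 220 CPM against 985 and 759 CPM, a 3.02-fold fall (log2 -1.59, SE 0.41, adjusted p = 0.0284). Hormad2 had 126 and 140 CPM against 296 and 264 CPM, a 2.11-fold fall (log2 -1.07, SE 0.20, adjusted p = 0.00667). In both genes the groups stood clearly apart. Dmc1 had 92.5 and 75 CPM in Tet1-KO females against 314 and 263 CPM in Tet1-WT females (log2 -1.78, SE 0.77, adjusted p = 0.196). Mei1 had 62.4 and 44.1 CPM against 207 and 160 CPM (log2 -1.79, SE 0.90, adjusted p = 0.282). Spo11 had 12 and 6.79 CPM against 53.9 and 42.7 CPM (log2 -2.37, SE 1.16, adjusted p = 0.261). These 3 genes did not pass, although their Tet1-KO means were 29.0%, 29.0% and 19.4% of the Tet1-WT means, as low as those of the genes that passed: 18.6% for Prdm9, 33.2% for Hormad1 and 47.5% for Hormad2. Mei4 lay at 52.6 and 24.3 CPM against 82.8 and 60.0 CPM, the nearest of the 7 to overlapping (log2 -0.89, SE 0.72, adjusted p = 0.539). Trip13 went the other way without passing, at 57.3 and 51.2 CPM against 48.7 and 46.0 CPM (log2 0.20, SE 0.18, adjusted p = 0.604).

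Whether Spo11 and Dmc1 passed depended on which libraries were fitted. With the 16 libraries of E12.5 and E14.5 alone, a fit chosen after the data were seen, 5 genes fell: Spo11 (log2 -2.36, adjusted p = 0.0136) and Dmc1 (log2 -1.78, adjusted p = 0.00415) joined the other 3, and Mei1 did not (adjusted p = 0.167). Fitting the 4 E14.5 female libraries alone called 6, with Mei1 at adjusted p = 0.0379. The share of all tested genes called was 6.65% in the fit to 20 libraries, 9.95% with the 16 and 3.82% with the 4. All 3 calls of the fit to 20 libraries were lost without Tet1-WT replicate 1 or without Tet1-KO library b, where the adjusted p-values were 0.0794 and 0.103 for Prdm9, 0.250 and 0.302 for Hormad1, and 0.106 and 0.0655 for Hormad2. Hormad1 was lost without Tet1-WT replicate 2 as well (adjusted p = 0.0553). Leaving out each library in turn gave log2 differences of -3.25 (without Tet1-KO library a) to -1.83 (without Tet1-KO library b) for Prdm9, -1.93 to -1.23 for Hormad1 and -1.15 to -0.95 for Hormad2. Germ cell markers summed to 5565 to 5904 CPM in Tet1-KO females against 6126 to 6469 CPM in Tet1-WT females, and mesenchyme markers to 13 to 19.5 against 35.9 to 43.3 CPM, with Meox1 at 0 in both genotypes and Gata4 in Tet1-KO. The 9 endothelial and blood markers summed to 119 to 211 against 58.0 to 73.1 CPM, with 6 of them at 0 in both Tet1-KO libraries and 4 in both Tet1-WT libraries. The part of these markers in the differences was not tested. Fewer cells expressing a gene and less RNA per cell cannot be told apart in bulk libraries.

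**Figure D3:**
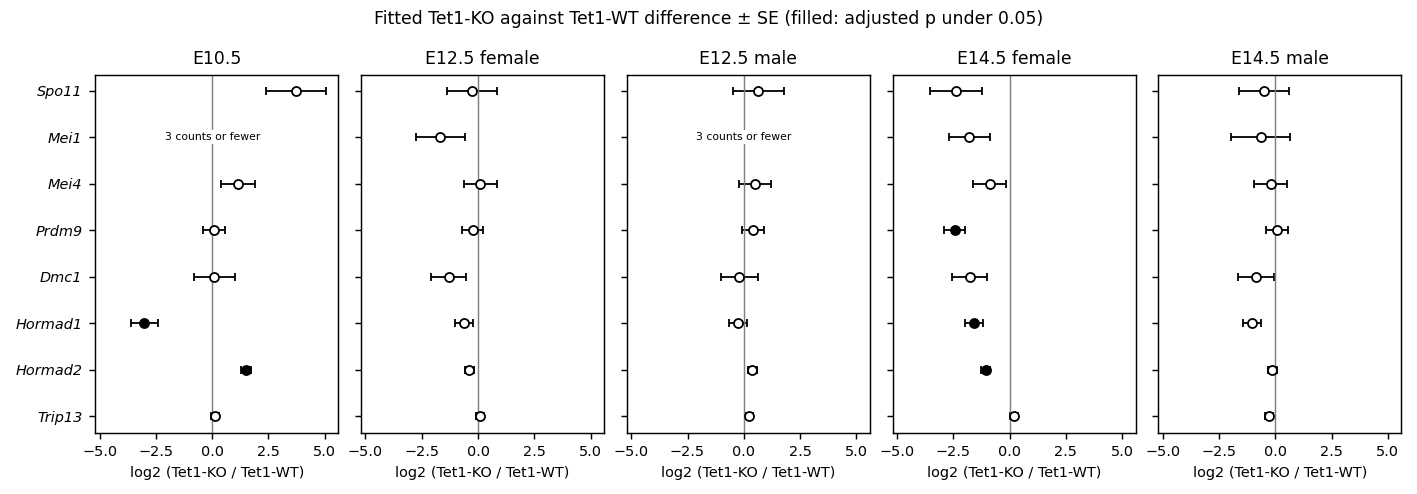
Fitted log2 difference of Tet1-KO over Tet1-WT (horizontal axis) with its standard error for each gene, in the 5 stage and sex groups; filled symbols passed an adjusted p of 0.05, and genes with a group of 3 counts or fewer carry no symbol. In E14.5 females 7 genes lie below 0 with Prdm9, Hormad1 and Hormad2 filled; in E10.5 libraries Hormad1 (lower) and Hormad2 (higher) are filled.

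In E14.5 males none of the 8 genes passed in edgeR or DESeq2, which called 0.102% and 2.09% of all genes. Of the 8, Hormad1 alone was under an unadjusted p of 0.05, as were 1815 of all 17567 genes. Hormad1 had 59.2 and 74.1 CPM in Tet1-KO males against 143 and 129 CPM in Tet1-WT males, with no overlap (log2 -1.03, SE 0.40, adjusted p = 0.369). Hormad2, which fell in females, had 53.4 and 49.9 CPM against 54.9 and 58.0 CPM in males (log2 -0.13, SE 0.20, adjusted p = 0.923). Prdm9 had 9.29 and 8.38 CPM in Tet1-KO males against 4.22 and 12.3 CPM in Tet1-WT males, which overlapped. Trip13 had 62.3 and 63.8 CPM against 85.7 and 66.8 CPM (log2 -0.27, SE 0.18, adjusted p = 0.645). Mesenchyme markers summed to 30.7 to 34.3 CPM in Tet1-KO males against 28.3 to 38.2 CPM in Tet1-WT males.

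The difference between the sexes was tested directly, as the Tet1-KO effect in females minus that in males. At E14.5 no gene of the 8 passed in edgeR, where 1.43% of all genes did. An unadjusted p under 0.05 was held by 2 of the 8 and by 2711 of all 17567 genes. DESeq2 called 2 of the 8 and 6.22% of all genes. Prdm9 came nearest, with an effect lower by a log2 of 2.50 in females (difference -2.50, SE 0.66, adjusted p = 0.0728), followed by Hormad2 (-0.95, SE 0.28, adjusted p = 0.107). Hormad1 differed by -0.57 (SE 0.56, adjusted p = 0.730), and Spo11 by -1.86 (SE 1.58, adjusted p = 0.657). Prdm9 passed without Tet1-KO female library a (adjusted p = 0.0246) or without Tet1-WT male replicate 2 (adjusted p = 0.0237). At E12.5 none passed in edgeR or DESeq2, which called 0% and 0.176% of all genes. An unadjusted p under 0.05 was held by 2 of the 8 and by 1007 of all genes.

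In E12.5 females none of the 8 genes passed in edgeR or DESeq2, which called 1.29% and 4.47% of all genes. None was under an unadjusted p of 0.05, against 2270 of all 17567 genes. Dmc1 had 9.56 and 9.44 CPM in Tet1-KO females against 18.7 and 28 CPM in Tet1-WT females (log2 -1.30, SE 0.78, adjusted p = 0.540). Mei1 had 1.03 and 0.564 CPM against 1.47 and 3.84 CPM (log2 -1.68, SE 1.08, adjusted p = 0.578). Hormad1 at 89.9 and 82.0 CPM against 178 and 90.1 CPM (log2 -0.64, SE 0.40, adjusted p = 0.559) and Hormad2 at 36.7 and 37.6 CPM against 55.6 and 41.1 CPM (log2 -0.38, SE 0.20, adjusted p = 0.460) were also lower in every Tet1-KO library. In E12.5 males none passed in edgeR or DESeq2, which called 1.06% and 4.76% of all genes. None of the 8 was under an unadjusted p of 0.05, against 2562 of all genes. Hormad1 had 61.3 and 68.2 CPM in Tet1-KO males against 73.6 and 80.9 CPM in Tet1-WT males (log2 -0.25, SE 0.40, adjusted p = 0.835), and Hormad2 21.6 and 19.1 CPM against 16.1 and 15.2 CPM (log2 0.38, SE 0.21, adjusted p = 0.422).

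In Tet1-KO females Mei1, Prdm9, Dmc1, Hormad1 and Hormad2 rose between E12.5 and E14.5, against 11.0% of all genes changed and 4.02% risen. At E14.5 against E12.5, Mei1 was 63.7-fold higher in Tet1-KO females (53.2 ± 12.9 against 0.799 ± 0.333 CPM, log2 5.99, SE 1.15, adjusted p = 0.00505). Prdm9 was 9.79-fold higher (89.9 ± 58.4 against 9.17 ± 0.386 CPM, log2 3.29, SE 0.50, adjusted p = 0.000832), and Dmc1 8.81-fold higher (log2 3.14, SE 0.82, adjusted p = 0.0235). Without E14.5 Tet1-KO library a the Prdm9 difference was log2 2.41. Hormad1 was 3.36-fold higher (log2 1.75, SE 0.41, adjusted p = 0.0124) and Hormad2 3.58-fold higher (log2 1.84, SE 0.21, adjusted p = 0.000151). Spo11 had 9.40 ± 3.68 CPM at E14.5 against 13.4 ± 4.56 CPM at E12.5 (log2 -0.51, SE 1.12, adjusted p = 0.841). The count of 5 was 3 without E12.5 Tet1-KO library a or E14.5 Tet1-KO library a, and 2 without E12.5 Tet1-KO library b, with Prdm9 and Hormad2 kept each time. Dmc1 was lost in each of those fits (adjusted p = 0.143, 0.0638 and 0.153), and so was Hormad1 (adjusted p = 0.0786, 0.0921 and 0.110). Mei1 was lost without E12.5 library b (adjusted p = 0.0644).

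Whether the Tet1-KO effect itself differed between E14.5 and E12.5 in females was tested as an interaction. None of the 8 passed in edgeR, against 1.30% of all genes. An unadjusted p under 0.05 was held by 2 of the 8 and by 2507 of all 17567 genes. DESeq2 called 1 of the 8 and 5.39% of all genes. Prdm9 gave -2.19 (SE 0.66, adjusted p = 0.12), Hormad2 -0.69 (SE 0.28, adjusted p = 0.261), Hormad1 -0.95 (SE 0.56, adjusted p = 0.488) and Dmc1 -0.49 (SE 1.08, adjusted p = 0.949). In males none passed in edgeR or DESeq2, which called 0.803% and 5.44% of all genes. Of the 8, 0 were under an unadjusted p of 0.05, against 2700 of all genes.

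The E14.5 sex difference was likewise present in Tet1-KO cells, where 5 genes were higher in females and 19.0% of all genes differed, 7.43% being higher. Mei1 was higher by a log2 of 6.89 (SE 1.24, adjusted p = 0.00182), over 13 and 1 counts in the males, and by 9.63 or 6.00 without male library a or b. Dmc1 was 18.5-fold higher (log2 4.21, SE 0.88, adjusted p = 0.00366) and Prdm9 10.2-fold higher (log2 3.34, SE 0.50, adjusted p = 0.000291; log2 2.52 or 3.95 without female library a or b). Germ cell markers summed to 5565 to 5904 CPM in these females against 11035 to 11157 CPM in the males, and their part was not tested. Hormad1 was 4.34-fold higher (adjusted p = 0.00240) and Hormad2 2.57-fold higher (adjusted p = 0.000280). Spo11 was the gene whose sexes overlapped in Tet1-KO cells, at 12 and 6.79 CPM in females and 14 and 9.04 CPM in males.

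At E10.5, 2 of the 8 genes passed between the labelled genotypes, where 8.81% of all genes changed, 4.10% being higher and 4.70% lower in libraries labelled Tet1-KO. Hormad1 had 1.44 and 0.0548 CPM in libraries labelled Tet1-KO against 4.91 and 6.37 CPM in those labelled Tet1-WT (log2 -3.02, SE 0.60, adjusted p = 0.00754), on 21 and 1 counts against 87 and 118. Leaving out the first of the libraries labelled Tet1-KO gave a log2 difference of -6.51, and leaving out the other gave -2.0. Hormad2 had 14.7 and 14.7 CPM against 3.95 and 6.32 CPM (log2 1.51, SE 0.22, adjusted p = 0.00128). The pair of HORMA genes thus moved in opposite directions, and the germ cell marker sum was higher in the libraries labelled Tet1-KO, as given above, its part in either difference not tested. Neither gene passed when the 4 libraries were fitted alone (adjusted p = 0.421 for Hormad1 and 0.249 for Hormad2). Spo11 had 17.2 and 0.219 CPM against 1.30 and 0 CPM, and Mei4 32.3 and 2.08 CPM against 7.85 and 7.67 CPM. Both differences rested on replicate 1: the Spo11 log2 difference of 3.73 (SE 1.33, adjusted p = 0.0932) became -1.52 and the Mei4 difference of 1.14 (SE 0.74, adjusted p = 0.352) became -1.89 without it. Without replicate 2 of Tet1-KO instead, both passed and the count was 4.

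Averaged over the 5 stage and sex groups, Hormad1 was the 1 gene that differed by genotype, 2.48-fold lower in Tet1-KO (log2 -1.31, SE 0.20, adjusted p = 0.000665), where 13.9% of all genes changed and 7.02% fell. It was lower in every Tet1-KO library than in every Tet1-WT library within all 5 groups. The E10.5 difference, with the largest log2 size of the 5, enters this average. Without E10.5 Tet1-KO replicate 1 the Hormad1 average was -2.0 on the log2 scale. The count was 2 without that library (Dmc1) or without E14.5 female Tet1-KO library a (Prdm9).

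In the MF1 cross none of the 8 genes differed from E10.5 Tet1-WT in edgeR or DESeq2, which called 0.606% and 15.9% of all genes. An unadjusted p under 0.05 was held by 2 of the 8 and by 3340 of all 15500 genes. Hormad2 had 18.1 and 18.9 CPM in the MF1 cross against 4.02 and 6.27 CPM in Tet1-WT (log2 1.84, SE 0.65, adjusted p = 0.188). Spo11 had 15.0 and 6.22 CPM against 1.32 and 0 CPM (log2 4.01, SE 2.00, adjusted p = 0.325), and Hormad1 had 11.1 and 15.2 CPM against 4.99 and 6.32 CPM (log2 1.22, SE 0.71, adjusted p = 0.391). Mei1 had 2.76 and 0.403 CPM against none in either Tet1-WT library. Germ cell markers summed to 5653 to 6052 CPM in the MF1 cross, against 1469 to 1788 CPM, and mesenchyme markers to 54.6 to 55.3 CPM against 1667 to 1939 CPM. Cross, RNA kit and depth differ together and cannot be told apart.

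Of 61 listed pathway genes, 59 were matched and tested in the Tet1 cross. In E14.5 Tet1-KO females 6 of the 59 fell and 1 rose, and 43 had a negative log2 difference, with a median of -0.22 against -0.03 over all genes. Of all tested genes 3.29% fell and 3.36% rose. Among break formation partners and hotspot readers, 1 of 8 fell: Zcwpw1, a reader of the PRDM9 histone marks, at 425 ± 47.6 against 1195 ± 28.9 CPM (log2 -1.49, SE 0.34, adjusted p = 0.0172). Among strand exchange genes, 1 of 23 fell: 4930432K21Rik, also named Brme1, which helps load recombinases through BRCA2, at 95.4 ± 30.6 against 237 ± 2.84 CPM (log2 -1.31, SE 0.27, adjusted p = 0.00952). Among end resection genes 2 of 10 fell: Rbbp8 (CtIP) at 91.7 ± 20.8 against 190 ± 22.8 CPM (adjusted p = 0.00725) and Mre11a, a nuclease subunit, at 98.8 ± 0.876 against 193 ± 0.779 CPM (adjusted p = 0.0246). Among signalling genes 2 of 18 fell and 1 rose. Atr, the kinase of unsynapsed axes, had 231 ± 16.5 against 559 ± 71.3 CPM (log2 -1.27, SE 0.20, adjusted p = 0.00313). Mdc1, its adaptor on phosphorylated histone H2AX, had 83.5 ± 6.24 against 187 ± 32.0 CPM (adjusted p = 0.00984). Chek2, a checkpoint kinase that removes oocytes with unrepaired breaks in mouse, rose, with 37.4 ± 8.43 against 18 ± 1.61 CPM (log2 1.05, SE 0.23, adjusted p = 0.0129).

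**Figure D4:**
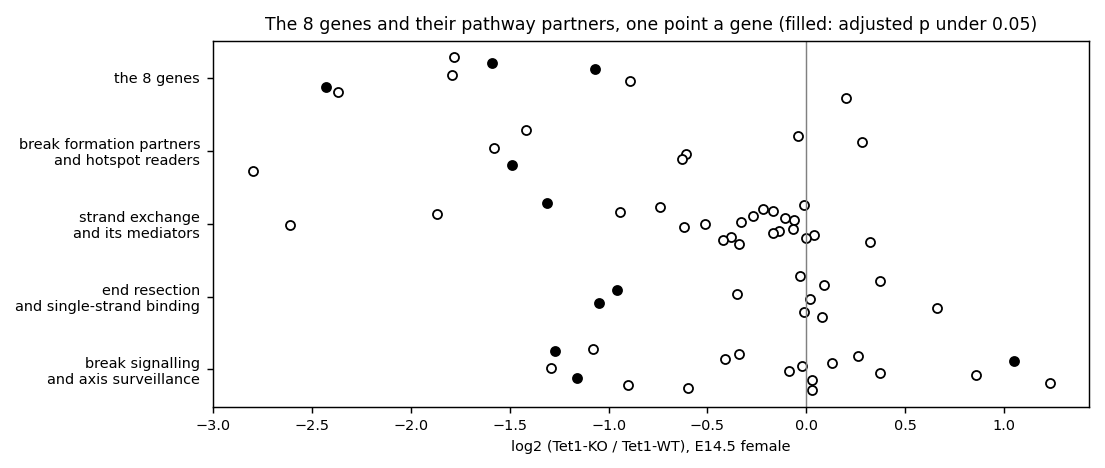
Fitted log2 difference of Tet1-KO over Tet1-WT in E14.5 females (horizontal axis) for the 8 genes and for 59 partner genes in 4 lists, 1 point a gene; filled points passed an adjusted p of 0.05. In the lists 6 filled points lie below 0 and 1 above, and the 8 genes have a median of -1.69.

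The partners were also set side by side over development, in comparisons that share E14.5 libraries with the one above. Between E12.5 and E14.5, 9 of 59 rose and 4 fell in Tet1-KO females, where 4.02% of all genes rose and 7.02% fell. In Tet1-WT females 22 rose and 4 fell, where 11.3% of all genes rose and 14% fell. At E14.5 against E12.5, Zcwpw1 had 425 ± 47.6 against 161 ± 41.9 CPM in Tet1-KO females (adjusted p = 0.0152) and 1195 ± 28.9 against 250 ± 97.8 CPM in Tet1-WT females (adjusted p = 0.000204). Chek2 fell to 37.4 ± 8.43 CPM against 91.5 ± 0.924 CPM in Tet1-KO females (log2 -1.29, SE 0.22, adjusted p = 0.00183), and to 18 ± 1.61 CPM against 78.8 ± 4.73 CPM in Tet1-WT females (log2 -2.13, SE 0.23, adjusted p = 1.13e-05). Meiob, a single-strand binding partner of strand exchange, had 71.7 ± 16.9 against 2.13 ± 1.61 CPM in Tet1-KO females (adjusted p = 0.00968) and 262 ± 58.5 against 4.2 ± 1.56 CPM in Tet1-WT females (adjusted p = 0.00124), and by genotype at E14.5 it did not pass (adjusted p = 0.277). At E10.5, 11 of 59 were higher in libraries labelled Tet1-KO, where 4.10% of all genes were, beside the higher germ cell marker sum, whose part was not tested. In E12.5 females, E12.5 males and E14.5 males none of the 59 passed in edgeR, where 1.29%, 1.06% and 0.102% of all genes did. Of the 59, 2, 6 and 12 were under an unadjusted p of 0.05, against 2270, 2562 and 1815 of all 17567 genes. The 59 were not counted with DESeq2.

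Profiles over the 10 group means were compared with those of 14915 other tested genes, by the root mean square difference of centred log2 CPM. Nearest to Mei1 were Majin, which tethers meiotic telomeres to the nuclear envelope, at 0.48, Meioc, which keeps germ cells in meiotic prophase, at 0.51, and Meiob at 0.54. Nearest to Dmc1 were Syngr4 at 0.48, Terb2, another telomere attachment gene, at 0.49 and Boll, a germ cell RNA-binding protein, at 0.59. Nearest to Spo11 were Rnf17 at 0.39 and Tdrkh at 0.51, both of the piRNA pathway, and Taf4b, an oocyte transcription factor subunit, at 0.52. Nearest to Hormad1 were Slc25a31, a germline ATP carrier, at 0.76, Tex11, a crossover factor, at 0.80 and Ccdc172 at 0.89, the widest distances of the 8 genes. Nearest to Prdm9 were Nrip3, Tc2n and Tppp at 0.31 to 0.38, and nearest to Hormad2 were Tnip2, Lrriq3 and Crebl2 at 0.32 to 0.41. Mei4 lay nearest to Ap4b1, Ube2t and Pura at 0.19 to 0.21, and Trip13 to the ribosomal gene Rpl15 at 0.05. These distances were not scaled to the spread of each centred profile, whose root mean square was 0.19 for Trip13 and 2.61 for Hormad1. Among the 8 genes themselves the closest pair was Spo11 and Hormad2 at 0.75, and the farthest was Mei1 and Trip13 at 2.95.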

How the data were processed

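The deposited counts are whole reads per gene, not normalized, which the authors made with Trimmomatic, TopHat2 2.0.2 on Bowtie 0.12.8 and HTSeq 0.5.3p9 on mm9, per the submitters' processing notes. Libraries were amplified cDNA from small inputs, per the labels' protocols, so duplicate molecules are counted. The bounds set at 3 counts cover counting error only. The 8 genes, the partner and marker lists and the named-gene rule (all 8 in every comparison, up to 4 called partners a list, 3 nearest profiles) were chosen with earlier results of these data known. edgeR 4.0.16 (R 4.3.3) fitted the 20 Tet1-cross libraries with 1 term a group, TMM scaling, filterByExpr (minimum count 10) and a quasi-likelihood test; 17567 genes were adjusted together. The E10.5 MF1 cross was fitted with Tet1-WT only, 15500 genes. The 23 comparisons had 2 libraries a group; p-values measure the spread between these libraries, pools of embryos in the Tet1 cross. Where libraries are said not to overlap, 2 against 2 can reach a 2-sided permutation p of 0.333 at the smallest. The share of all genes without overlap is not given here. CPM use effective library sizes, and means are ± SD. Each SE, also in the figures, is the size of the log2 difference over the square root of its quasi-likelihood F statistic. It is an approximation, not an error estimated by the fit. The Tet1-KO columns at E12.5 and E14.5 share headers within a pair, so these libraries are called a and b. Same-numbered libraries did not deviate together (r -0.0324 to 0.0477). Alternatives were DESeq2 1.42.0, RLE scaling, no filter, a replicate block, other sample sets and leaving out each library. On simulated counts for E14.5 females, 17567 genes, edgeR recovered 62% of 4-fold and 13% of 2-fold changes, with 2 unchanged genes called. The changed genes were drawn from those above a minimum mean count.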

Additional observations from a re-analysis of the deposited data

How the results depend on the processing

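None of the 39 called gene and comparison pairs with a log2 difference changed sign under any alternative run. Of 138 pairs not called, 43 did under at least 1 alternative, so their directions are loose. Counts of the 8 genes called held within 1.5 times under RLE scaling (23 of 23 comparisons) and under a replicate block (8 of 8). With the replicate block the counts were 2 at E10.5 by genotype, 5 and 2 in E12.5 females and males against E10.5, 5 and 1 in E14.5 females and males against E12.5, 1 and 6 in females against males at E12.5 and E14.5, all Tet1-WT, and 0 for the MF1 cross. No paired analysis was possible for the other comparisons because the Tet1-KO columns at E12.5 and E14.5 carry no distinct number.

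Without the filter, Tet1-KO against Tet1-WT called 4 at E10.5, 6 in E14.5 females, 1 in E14.5 males, 2 in E12.5 females, 1 in E12.5 males and 3 on average, and each of the 4 tests of a difference between effects called 1. The stage and sex comparisons that moved called 4 (E12.5 males against E10.5, Tet1-WT), 4 and 3 (E12.5 females and males against E10.5, Tet1-KO), 3 (E14.5 against E12.5, male Tet1-WT) and 4 (E12.5 females against males, Tet1-WT). The cause was not tested. DESeq2 called 2 for the E14.5 female minus male effect, where it called 6.22% of all genes. It called 1 for the E14.5 minus E12.5 effect in females (5.39% of all genes) and 1 for E12.5 Tet1-KO females against males (1.94%). Fitting the compared groups alone called 0 at E10.5 by genotype (0% of all genes) and 6 in E14.5 females by genotype (3.82%). It called 0 in E12.5 Tet1-KO females and 0 in males against E10.5 (0.271% and 0.184%). Male Tet1-WT at E14.5 against E12.5 had 2 (13.7%). For E12.5 females against males it called 0 in Tet1-WT (0.327%) and 1 in Tet1-KO (4.49%). Without the E10.5 libraries, an alternative chosen after the data were seen, the count was 5 in E14.5 females by genotype (9.95% of all genes). It was 1 for the E14.5 female minus male effect (3.06%). For E12.5 females against males it was 2 in Tet1-WT (1.66%) and 1 in Tet1-KO (0.566%). Fitting all 22 libraries called 4 for the MF1 cross, where 24.0% of all genes were called.

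Leaving out 1 library at a time gave 2 to 4 at E10.5 by genotype, 0 to 3 in E14.5 females by genotype, 1 to 2 on average, 0 to 1 for the E14.5 female minus male effect and 0 to 1 for the E14.5 minus E12.5 effect in females. It gave 2 to 4 for E12.5 females against E10.5 in Tet1-WT, 2 to 5 and 1 to 4 for E12.5 females and males against E10.5 in Tet1-KO, 2 to 5 for E14.5 against E12.5 in female Tet1-KO and 0 to 1 for the MF1 cross. In these fits the lone library left in a group is assumed to vary like the other groups. At E10.5 Spo11 ranged from -1.52 to 10.16, the highest fitted against a lone library with no Spo11 count, and Mei4 from -1.89 to 2.03 (log2). Counts over all genes moved by over 1.5 times in 0 of 23 comparisons under RLE scaling, 17 of 23 under DESeq2, 13 of 23 without the filter, 14 of 21 with the compared groups alone and 6 of 16 without the E10.5 libraries. By genotype, E14.5 females had 1168 genes called, against 2176 under DESeq2, 1857 without the filter and 537 alone, and E10.5 had 1547 against 2819, 2578 and 0. The MF1 cross had 94, against 2469 under DESeq2, 1370 without the filter, 393 with the replicate block and 4318 with all 22 libraries. With 2 libraries a group, the self-test's 62% recovery of 4-fold changes bounds what a missed call says.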
